A study of Homo sapiens with 16 samples.

Results

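The loci of 4 genes, THEMIS, HHLA2, P2RY12 and LMO3, were examined in ATAC-seq peak lists of the human lung fibroblast line IMR90. A locus was the gene with 10 kb added at either end, and its value was the number of distinct peaks whose summit lay in it. The 4 were chosen by these counts, out of 19974 protein-coding genes of which 15175 had enough peaks to be fitted, for losing nearly all peaks with active Raf in normoxia and fewer in hypoxia. The counts that chose them are given as a description, with no test. Per the protocol the cells were infected with retrovirus for △B-RAF:ER, a B-RAF kinase fused to the estrogen receptor, which 4-hydroxytamoxifen (4-OHT) switches on. Strong Raf activity can arrest fibroblasts in senescence, and the study's question was the effect of low oxygen on open chromatin in that state. The 16 libraries formed 4 groups of 4 replicates: Raf-inactivated and Raf-activated cells in normoxia, and the same pair in hypoxia at 0.5% oxygen. The labels give neither the time of induction nor that of hypoxia, and do not say whether the Raf-inactivated cells received a vehicle. Nothing in them tells whether replicates were separate cultures, so spreads and p-values cover only these libraries and may be technical.

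ATAC-seq reads open chromatin through Tn5 transposase, which inserts sequencing adapters where DNA is accessible, and a peak marks a place where insertions pile up above the local background. None of the 4 genes is known for a role in fibroblasts. THEMIS encodes a protein of developing T cells that tunes signalling from the T-cell receptor. HHLA2 encodes a ligand of the B7 family, cell-surface proteins that stimulate or inhibit T cells. P2RY12 encodes the receptor through which ADP activates platelets and draws microglial processes. LMO3 encodes a nuclear protein made of LIM domains that binds transcription factors without touching DNA itself, best known from the nervous system.

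Start-site sequences are shown because they separate the loci: in Raf-active hypoxia the HHLA2 and LMO3 windows overlapped a peak in 4 of 4 libraries, and no start-site window of THEMIS or P2RY12 overlapped a peak in any of the 16. Each window runs from 250 bases before to 50 after an annotated start, 5′ to 3′ on the gene's strand, from RefSeq on GRCh38.p14. All 4 genes were matched in the promoter table. Where a gene has several starts, the one shown is the most upstream of those with a peak in the most Raf-active hypoxia libraries. Capitals mark TGANTCA, the site bound by AP-1, and ACGTG or GCGTG, the core bound by hypoxia-inducible factors, on either strand. The motifs cannot overlap each other in the windows shown.
HHLA2, chr3:108296298-108296597, plus strand: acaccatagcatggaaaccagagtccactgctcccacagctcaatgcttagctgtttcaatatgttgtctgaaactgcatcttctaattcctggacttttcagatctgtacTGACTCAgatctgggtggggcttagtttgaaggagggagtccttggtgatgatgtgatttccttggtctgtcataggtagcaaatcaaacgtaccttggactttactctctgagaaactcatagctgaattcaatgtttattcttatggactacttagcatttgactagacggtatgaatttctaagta
LMO3, chr12:16606113-16606412, minus strand: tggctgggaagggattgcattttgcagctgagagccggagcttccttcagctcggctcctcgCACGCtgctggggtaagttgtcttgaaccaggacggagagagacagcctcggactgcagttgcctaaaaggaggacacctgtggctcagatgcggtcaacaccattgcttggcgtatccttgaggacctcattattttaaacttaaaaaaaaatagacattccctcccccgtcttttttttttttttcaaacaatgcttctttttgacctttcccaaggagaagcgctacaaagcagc
THEMIS, chr6:127918546-127918845, minus strand: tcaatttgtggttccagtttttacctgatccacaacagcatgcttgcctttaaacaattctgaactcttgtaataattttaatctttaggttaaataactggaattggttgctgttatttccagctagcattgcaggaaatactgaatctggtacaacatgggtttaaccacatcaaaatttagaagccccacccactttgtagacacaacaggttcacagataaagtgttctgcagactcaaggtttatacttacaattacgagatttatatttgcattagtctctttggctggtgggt
P2RY12, chr3:151384704-151385003, minus strand: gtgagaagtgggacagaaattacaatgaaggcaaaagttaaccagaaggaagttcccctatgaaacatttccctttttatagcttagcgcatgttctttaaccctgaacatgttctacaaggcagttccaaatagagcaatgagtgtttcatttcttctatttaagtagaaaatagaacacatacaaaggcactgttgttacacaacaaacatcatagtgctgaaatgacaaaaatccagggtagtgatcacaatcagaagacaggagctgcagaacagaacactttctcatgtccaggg
The HHLA2 window holds 1 match to TGANTCA, 139 bases before the start, on chromosome 3 from 108296409 to 108296415. TGANTCA occurs in 6.1% of 22132 start-site windows of protein-coding genes. The LMO3 window holds 1 match to GCGTG, read on the opposite strand, and ACGTG or GCGTG occurs in 54.7% of windows. The other 2 windows hold no match, which says only that these letters are not there. All 4 windows are poor in CG dinucleotides: 2 in HHLA2, 10 in LMO3, 1 in THEMIS and 1 in P2RY12, against a median of 21 over all windows. Their GC content was 41.3%, 48.7%, 36.7% and 38.7% in the same order, against a median of 62.3%.

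Each library had its own list, with 175200 to 179646 distinct peaks in Raf-inactive normoxia, 190378 to 204638 in Raf-active normoxia, 169287 to 174991 in Raf-inactive hypoxia and 197591 to 206757 in Raf-active hypoxia. The lists state no read totals, so depth is unknown, and absence of a peak means that none was called. The weakest calls, those with a -log10 q under 2, had a median fold enrichment of 2.50 to 2.60 in Raf-inactive normoxia, 2.00 to 2.07 in Raf-active normoxia, 2.31 to 2.36 in Raf-inactive hypoxia and 2.01 to 2.13 in Raf-active hypoxia. Weaker enrichment was thus enough for a call in the groups where these loci had few peaks. All 12 fibroblast marker loci, among them COL1A1, COL3A1 and TWIST1, had a peak in 4 of 4 libraries of every group, with 138 to 144 summed peaks per library in Raf-inactive normoxia, 157 to 173 in Raf-active normoxia, 139 to 144 in Raf-inactive hypoxia and 149 to 157 in Raf-active hypoxia. These sums, and those below, are before scaling, and the lists were longer with Raf active. Scaled to equal library totals, 2 of the 12 were called higher and 3 lower with Raf in normoxia, against 1 and 7 in hypoxia. Of all loci tested, 37.4% were called higher and 25.6% lower in normoxia, and 33.8% and 26.4% in hypoxia. The median log2 change of the 12 was -0.03 and -0.38, against 0.10 and 0.06 over all loci. Of 7 T-cell marker loci 6 had a peak in all 4 libraries of each group, and CD3D had none in any group except Raf-active hypoxia. Their summed peaks ran from 17 to 19, 30 to 35, 14 to 20 and 32 to 35 in the same order of groups. All 8 loci of microglia and platelet markers had peaks too, 28 to 32, 39 to 47, 23 to 24 and 40 to 49 in sum, and of 8 neuron marker loci DCX had none in any library and 2 others none in Raf-active normoxia, with 98 to 108, 125 to 149, 91 to 105 and 123 to 134 in sum. The rise of the neuron sum with Raf was carried by RBFOX3, with a mean of 27.0, 103.5, 25.0 and 88.0 peaks. SYT1 had 43.75, 17.75, 43.5 and 19.0. After scaling, 2 of 5 tested neuron loci were called higher and 3 lower with Raf in both oxygen states (median log2 change -0.89 and -0.78). Of 3 tested T-cell loci 2 were called higher and 0 lower in both states (median 0.67 and 0.45). Of 5 tested microglia and platelet loci, 2 were called higher in normoxia and 5 in hypoxia, with 0 lower (median 0.165 and 0.63). Peaks near genes of other lineages were thus present in every group, and their part in the results was not tested.

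THEMIS lies on chromosome 6 from 127696628 to 127918595. Its locus held 15, 12, 13 and 12 peaks in Raf-inactive normoxia (replicates 1 to 4) and 0, 0, 0 and 1 in Raf-active normoxia. In hypoxia it held 13, 13, 12 and 10 peaks with Raf inactive and 2, 2, 3 and 2 with Raf active. Both Raf-inactive groups were high and overlapped each other, Raf-active normoxia was lowest, and Raf-active hypoxia lay between without touching either. After scaling each library to the same total over loci the levels were 14.03 ± 1.55 (SD, n = 4), 0.221 ± 0.442, 13.5 ± 1.56 and 2.09 ± 0.43 peaks, in the order Raf-inactive and Raf-active normoxia, then Raf-inactive and Raf-active hypoxia. On the log2(scaled peaks + 1) scale THEMIS fell by 3.68 ± 0.17 (SE) with Raf in normoxia and, in hypoxia, fell by 2.23 ± 0.17. These log2 changes understate the change of loci near 0.

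**Figure D1:**
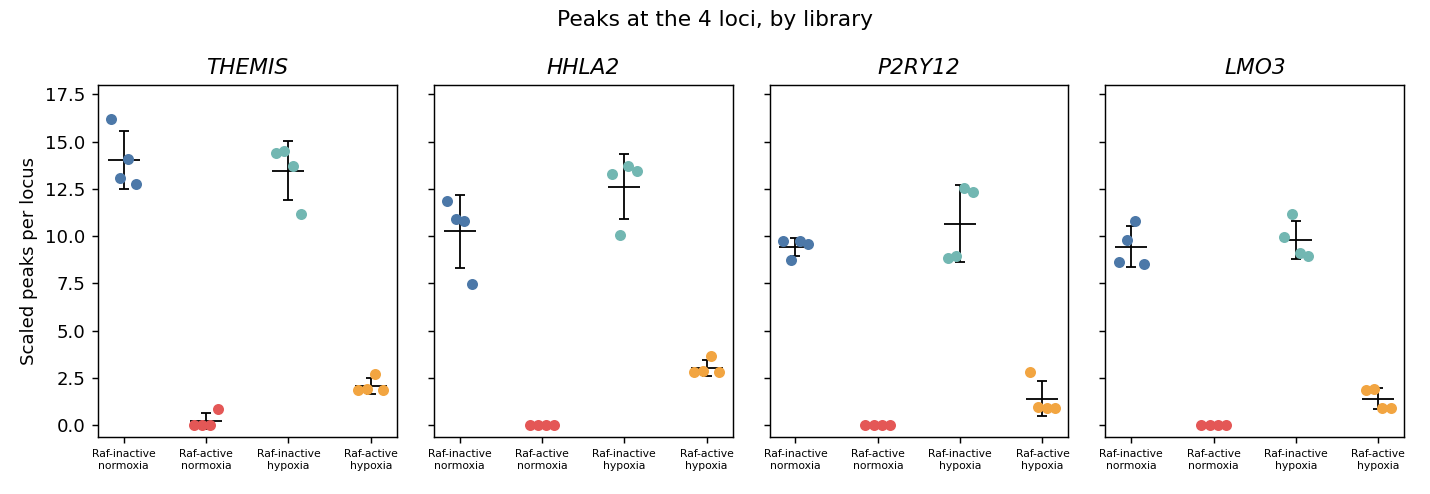
Scaled peaks per locus (vertical axis) for THEMIS, HHLA2, P2RY12 and LMO3 in the 4 groups; points are libraries, bars the mean ± SD (n = 4). At each locus both Raf-inactive groups sit far above both Raf-active groups, and Raf-active hypoxia (mean 1.40 to 3.03) sits above Raf-active normoxia (mean 0 to 0.221).

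The peaks of THEMIS in Raf-active hypoxia were mostly not those it had lost. Its locus contained 19 merged regions, meaning stretches covered by overlapping peaks of any library, and 10 of them had a peak in 4 of 4 Raf-inactive and 0 of 4 Raf-active normoxia libraries. The strongest of these, inside the gene on chromosome 6 from 127748909 to 127749549, had an enrichment over background, in the authors' values, of 17.4 to 22.3 in Raf-inactive normoxia and 21.1 to 23.3 in Raf-inactive hypoxia. It had no peak in any Raf-active library. Of the 10 lost regions only that from 127736944 to 127738123 had a peak with active Raf in hypoxia, in 1 library at 3.75-fold. A region from 127840907 to 127841260, inside the gene and 13928 bp from the nearest annotated start, had peaks of 3.89 to 6.50-fold in 4 of 4 Raf-active hypoxia libraries and none in the other 12. Another, 5842 bp upstream of the gene from 127924437 to 127924783, had peaks in 4 of 4 libraries of both hypoxia groups, at 5.89 to 8.87-fold with Raf inactive and 5.52 to 8.68-fold with Raf active. It was absent from Raf-inactive normoxia and present in Raf-active normoxia in replicate 4 alone, at 3.70-fold, the only peak any of the 4 loci had in that group.

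HHLA2 lies on chromosome 3 from 108296548 to 108378285, and MYH15, a myosin heavy chain gene, reaches into its downstream 10 kb. The HHLA2 locus held 11, 10, 10 and 7 peaks in Raf-inactive normoxia and none in any Raf-active normoxia library. It held 12, 9, 12 and 12 peaks in Raf-inactive hypoxia and 3, 3, 4 and 3 in Raf-active hypoxia, the most of the 4 loci in that group. The Raf-inactive groups overlapped and the Raf-active groups did not. Scaled levels were 10.3 ± 1.94, 0, 12.6 ± 1.72 and 3.03 ± 0.41 peaks (SD, n = 4), in the same order of groups. HHLA2 fell by 3.48 ± 0.12 on the log2 scale with Raf in normoxia and, in hypoxia, fell by 1.75 ± 0.12.

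At HHLA2 the peaks of Raf-active hypoxia gathered at the 5′ end of the gene. A region over the start, on chromosome 3 from 108296222 to 108296557, was called in 3 of 4 Raf-inactive normoxia libraries at 4.35 to 5.74-fold and in 4 of 4 of both hypoxia groups, at 3.87 to 6.67-fold with Raf inactive and 4.66 to 5.18-fold with Raf active. Summits of the 4 Raf-active hypoxia peaks lay 0 to 16 bp from the middle of the TGANTCA match shown in capitals above, those of Raf-inactive hypoxia 5 to 12 bp and those of Raf-inactive normoxia 2 to 25 bp. The adjoining region, 403 bp upstream of the start from 108295772 to 108296145, was called in 2 of 4 Raf-inactive normoxia libraries at 3.96 and 4.13-fold and in 4 of 4 Raf-inactive hypoxia libraries at 4.15 to 8.03-fold. In Raf-active hypoxia it was called in 4 of 4 at 9.07 to 11.2-fold, above the other 3 groups, and its median rank within the lists was the 73.4th percentile of fold. A region inside the gene from 108305562 to 108306140 had peaks of 5.59 to 5.89-fold in 4 of 4 Raf-active hypoxia libraries and in none of the other 12. Of the 5 regions that were lost in normoxia by the 4-of-4 against 0-of-4 rule, 1 had a peak in Raf-active hypoxia, in a single library.

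P2RY12 lies on chromosome 3 from 151336843 to 151384753, within the span of MED12L, a Mediator subunit gene, and next to P2RY13, which overlaps its downstream 10 kb. The peaks counted here are therefore also peaks of the MED12L locus. The P2RY12 locus held 9, 8, 9 and 9 peaks in Raf-inactive normoxia and none in Raf-active normoxia. In hypoxia it held 8, 8, 11 and 11 with Raf inactive and 3, 1, 1 and 1 with Raf active. Again the Raf-inactive groups overlapped and the Raf-active groups did not. Scaled levels were 9.44 ± 0.48, 0, 10.7 ± 2.04 and 1.40 ± 0.93 peaks (SD, n = 4). P2RY12 fell by 3.38 ± 0.17 on the log2 scale with Raf in normoxia and, in hypoxia, fell by 2.33 ± 0.17.

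Its strongest region, inside the gene from 151345665 to 151346240, was 16.5 to 18.7-fold enriched in Raf-inactive normoxia and 22.3 to 23.2-fold in Raf-inactive hypoxia, and was not called with Raf active. In Raf-active hypoxia a region from 151381856 to 151382259, 2494 bp inside the gene from its start, was called in 4 of 4 libraries at 2.80 to 6.74-fold. It had a peak in no normoxia library and in 1 Raf-inactive hypoxia library, at 2.73-fold. The 2 other peaks, at 3.40 and 3.65-fold, lay in regions lost in normoxia and both came from replicate 1.

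LMO3 lies on chromosome 12 from 16548372 to 16610174 and overlaps the annotated span of MGST1, a glutathione transferase gene. Its locus held 8, 9, 10 and 8 peaks in Raf-inactive normoxia and none in Raf-active normoxia. In hypoxia it held 9, 10, 8 and 8 with Raf inactive and 2, 2, 1 and 1 with Raf active. The Raf-inactive groups overlapped and Raf-active hypoxia lay above Raf-active normoxia. Scaled levels were 9.45 ± 1.09, 0, 9.81 ± 1.02 and 1.40 ± 0.55 peaks (SD, n = 4). LMO3 fell by 3.38 ± 0.13 on the log2 scale with Raf in normoxia and, in hypoxia, fell by 2.19 ± 0.13.

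LMO3 was the locus where the peaks of Raf-active hypoxia stood at a place whose call was lost with Raf in normoxia. All 6 of them fell in a region over the cluster of start sites, from 16605655 to 16606852, which was called in 4 of 4 libraries of each group except Raf-active normoxia, where it was called in 0 of 4. The highest enrichment per library in that region was 5.93 to 7.37-fold in Raf-inactive normoxia, 7.74 to 9.67-fold in Raf-inactive hypoxia and 2.67 to 4.39-fold in Raf-active hypoxia. The last range begins near the edge of calling in those libraries. Summits of the Raf-active hypoxia peaks over the GCGTG match lay 42 to 304 bp from its middle. Those of Raf-inactive hypoxia lay 13 to 30 bp from it and those of Raf-inactive normoxia 23 to 271 bp. The other strong LMO3 regions, from 16555568 to 16556022 and from 16583859 to 16584409, reached 16.4 and 13.8-fold in Raf-inactive normoxia and had no peak in either Raf-active group.

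**Figure D2:**
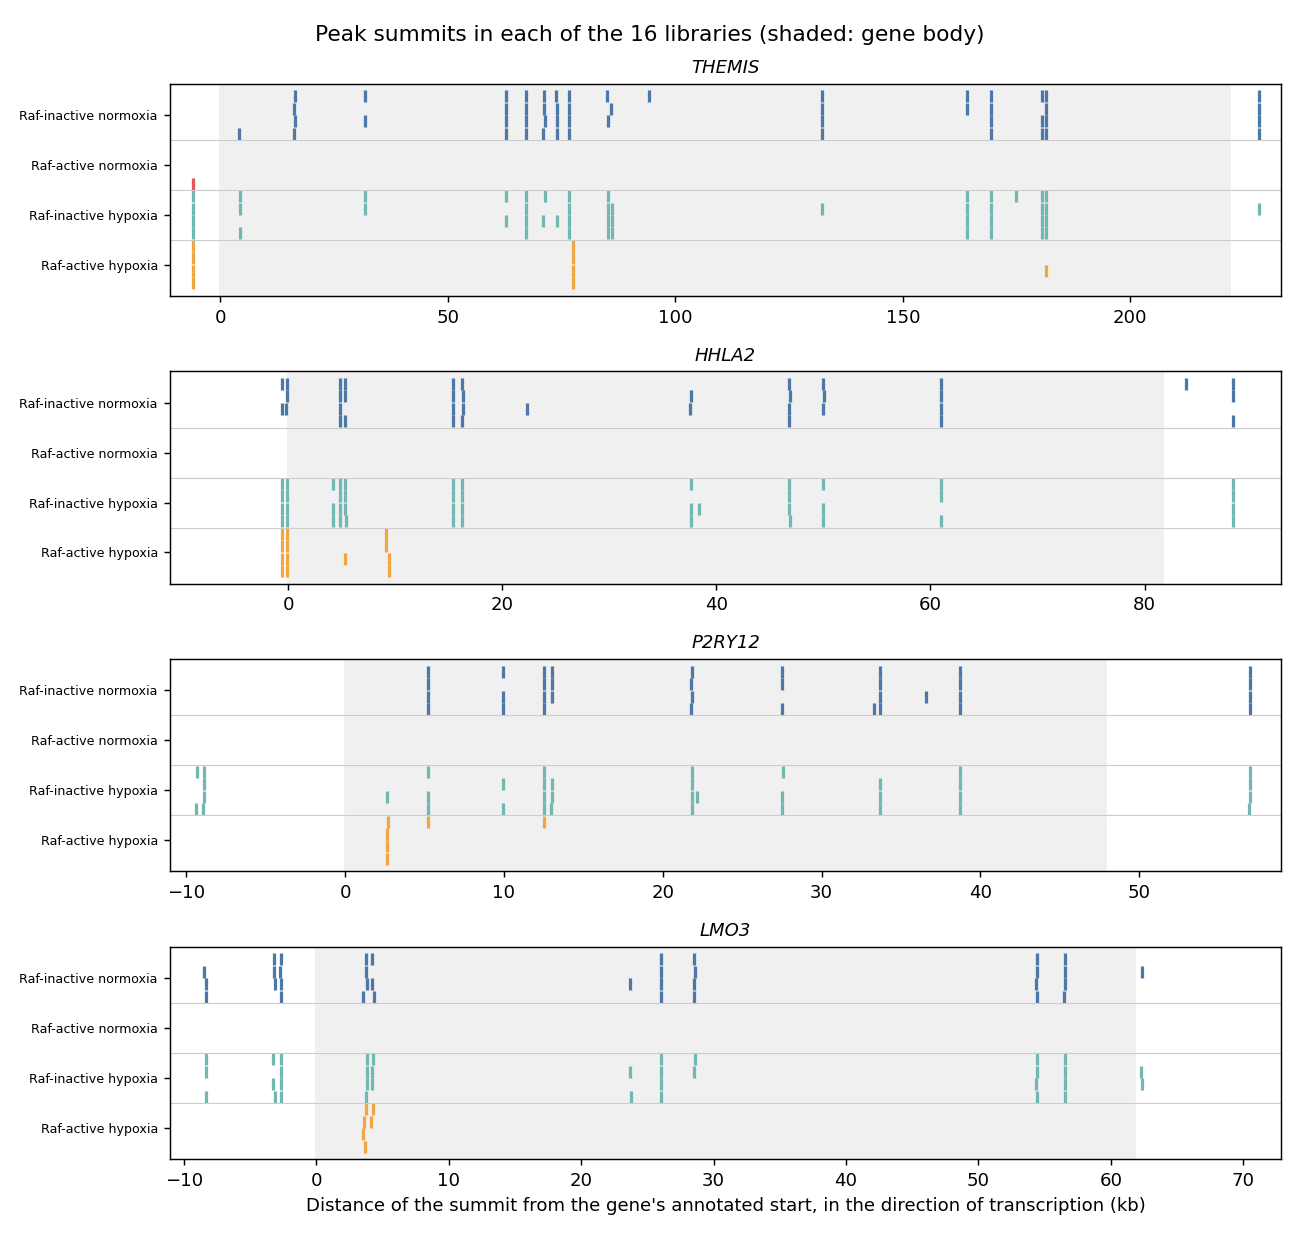
Summits of the peaks at each locus, 1 row per library and 4 rows per group; the horizontal axis is the distance from the gene's annotated start along the direction of transcription (kb) and the shading is the gene body. The row block of Raf-active normoxia is empty except for 1 tick upstream of THEMIS, and the ticks of Raf-active hypoxia stand at few places, of which those at the LMO3 and HHLA2 starts line up with ticks of Raf-inactive normoxia.

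Across the 4 loci there were 55 merged regions, of which 27 were lost with Raf in normoxia by the rule of 4 of 4 libraries against 0 of 4. Of the 27, 5 were called in at least 1 library of Raf-active hypoxia and 1, at the LMO3 starts, in 4 of 4. By the same rule 17 regions were lost in hypoxia. In turn 7 regions had a peak in 4 of 4 Raf-active hypoxia libraries: 3 of them were also called in at least 1 Raf-inactive normoxia library and 4 in none. When peaks under 5-fold were left out, the regions lost in normoxia numbered 16.

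Counted as peaks, 18 of the 34 Raf-active hypoxia peaks (52.9%) overlapped a Raf-inactive normoxia peak by at least 1 bp, and 26 (76.5%) overlapped a Raf-inactive hypoxia peak. The share at Raf-inactive normoxia peaks was 1 of 9 for THEMIS, 9 of 13 for HHLA2, 2 of 6 for P2RY12 and 6 of 6 for LMO3. At the other 3886 loci called lower with Raf in normoxia the share was 78.1%. It was 79.0% of 157 peaks at the 12 of these with fewer than 0.5 scaled peaks in Raf-active normoxia and any peak in Raf-active hypoxia. For overlap with Raf-inactive hypoxia peaks the shares were 78.9% and 76.4%, next to the 76.5% of the 4 loci. The differences were not tested. When peaks under 5-fold were left out, 2 of 17 Raf-active hypoxia peaks overlapped a Raf-inactive normoxia peak of that strength. The name given to these loci, partly kept in hypoxia, thus described the region over the HHLA2 start by position. That region was called in 3 of 4 Raf-inactive normoxia libraries, short of the 4-of-4 rule for a lost region. The adjoining upstream region, called in 2 of 4, was stronger in Raf-active hypoxia (9.07 to 11.2-fold) than in Raf-inactive normoxia (3.96 and 4.13-fold). The name described THEMIS only by number of peaks. For LMO3 the position was the same but no Raf-active hypoxia peak exceeded 4.39-fold, and for both LMO3 and P2RY12 most of the difference in number was gone at equal list length, as given next. Bulk chromatin cannot tell fewer cells with an open site from a site less open in every cell.

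The 160 peaks of the 4 loci in Raf-inactive normoxia had a median enrichment of 5.73-fold and a lowest of 2.75-fold. They ranked somewhat below the middle of their own lists, at a median percentile of 42.9, with 39.3 at THEMIS, 40.8 at HHLA2, 51.9 at P2RY12 and 51.4 at LMO3. The 166 peaks in Raf-inactive hypoxia had a median of 5.82 and the 34 in Raf-active hypoxia one of 5.01. In Raf-active hypoxia the median fold was 5.52 at THEMIS and 5.64 at HHLA2, but 3.59 at P2RY12 and 2.79 at LMO3. With every list cut to the same 169287 peaks ranked by -log10 p, hypoxia with Raf active changed LMO3 by 0.25 ± 0.17 (log2, SE) and P2RY12 by 0.50 ± 0.20, in place of 1.24 ± 0.13 and 1.19 ± 0.17. The median rank of their Raf-active hypoxia peaks, by fold within each list, was the 9.6th percentile for LMO3 and the 24.6th for P2RY12.

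**Figure D3:**
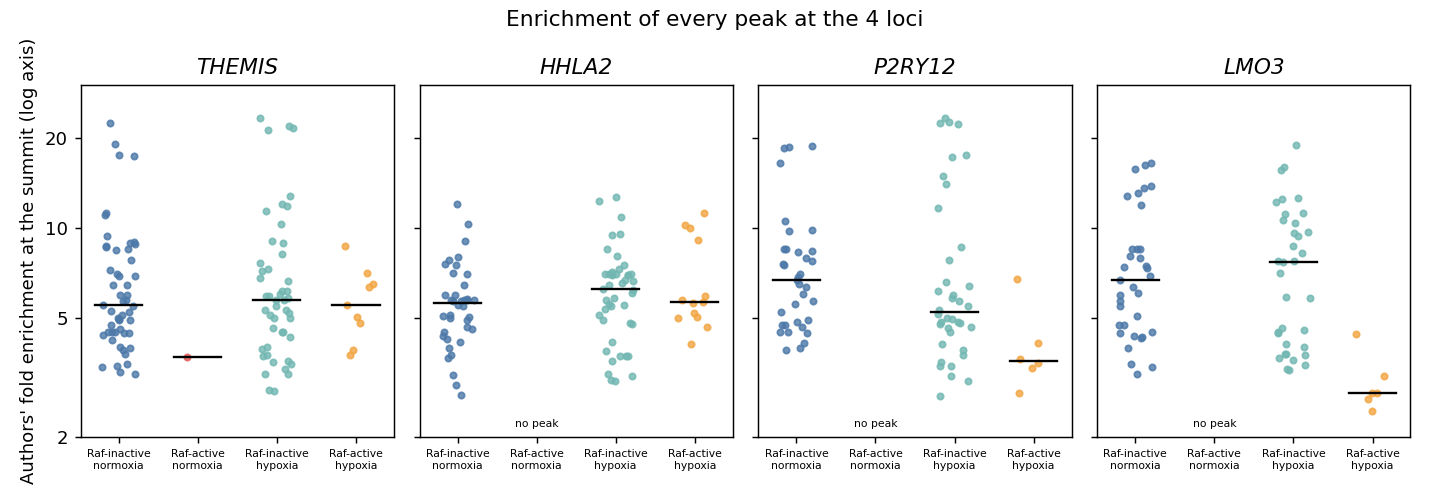
Authors' fold enrichment at the summit (log axis) of every peak at the 4 loci, by group; points are peaks of all 4 libraries of a group and the black line is their median. The medians of Raf-active hypoxia lie near those of the Raf-inactive groups at THEMIS (5.52) and HHLA2 (5.64) and below them at P2RY12 (3.59) and LMO3 (2.79).

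All 4 loci were lower with active Raf in normoxia and in hypoxia, where 25.6% and 26.4% of the 15175 loci tested were called lower (limma, adjusted p under 0.05). All 4 had a smaller fall in hypoxia, where 9.13% of loci were called with a higher Raf change in hypoxia than in normoxia and 9.16% with a lower one. Since the choice of loci used these contrasts, nothing is read from the counts. The difference between the Raf changes was 1.45 ± 0.24 (SE) for THEMIS, 1.72 ± 0.17 for HHLA2, 1.05 ± 0.25 for P2RY12 and 1.19 ± 0.18 for LMO3 on the log2 scale. It turned to -0.40 ± 0.14 for THEMIS when the locus was widened to 50 kb on each side. With that window it was 0.21 ± 0.14 for P2RY12, 1.16 ± 0.16 for HHLA2 and 1.11 ± 0.26 for LMO3. At equal list length the difference was 0.23 ± 0.24 for LMO3 and 0.39 ± 0.28 for P2RY12. Hypoxia without active Raf changed THEMIS by -0.06 ± 0.17, HHLA2 by 0.28 ± 0.12, P2RY12 by 0.15 ± 0.17 and LMO3 by 0.05 ± 0.13, with overlapping groups at each locus. Just outside the choice lay ADAMTS19, a secreted metalloproteinase gene, with Raf changes of -3.21 in normoxia and -2.74 in hypoxia, and HMGCLL1, a lyase gene of ketone body synthesis, with -3.16 and -3.22. REDIC1, whose levels are given below, had -3.00 and -1.94, a difference of 1.06. A smaller fall in hypoxia was thus not confined to the 4.

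Peaks further out, from 10 to 200 kb beyond either end of each gene, took no part in the choice and were tested over all genes (limma with Benjamini-Hochberg adjustment, 19188 flanks). The flanks of all 4 genes fell with Raf in normoxia, where 41.5% of flanks were called lower and 38.4% higher. Those of THEMIS fell from 16.1 ± 1.72 to 7.24 ± 0.41 scaled peaks (log2 change -1.05 ± 0.09, adjusted p 9.84e-09 by limma), those of HHLA2 from 49.3 ± 3.53 to 16.6 ± 1.55 (-1.51 ± 0.07, adjusted p 2.24e-12 by limma). Those of P2RY12 fell from 44.7 ± 2.89 to 19.8 ± 1.87 (-1.14 ± 0.06, adjusted p 1.33e-11 by limma) and those of LMO3 from 18.1 ± 1.41 to 6.20 ± 0.97 (-1.41 ± 0.09, adjusted p 4.46e-10 by limma). The groups overlapped at none of the 4, but the share of all flanks without overlap was not counted, so nothing is read from this. The surroundings lost many peaks but not nearly all, as the gene loci had. The gene loci were chosen for that loss and the flanks were not, so this contrast is no test.

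In hypoxia the flanks of all 4 genes also fell with Raf, where 38.7% of flanks did, by log2 changes of -2.00 ± 0.09 for THEMIS, -1.07 ± 0.07 for HHLA2, -0.96 ± 0.06 for P2RY12 and -1.61 ± 0.09 for LMO3. Here the genes parted. The THEMIS flanks had a larger fall in hypoxia than in normoxia, with a difference of -0.95 ± 0.13 (adjusted p 5.54e-05 by limma), opposite to the difference at the gene itself, and 12.3% of flanks were called in that direction. Those of HHLA2 had a smaller fall, with a difference of 0.45 ± 0.09 (adjusted p 0.00179 by limma), and 19.2% of flanks were called so. The difference for P2RY12 was 0.18 ± 0.08 (adjusted p 0.0988 by limma) and for LMO3 -0.19 ± 0.13 (adjusted p 0.287 by limma), and neither passed the test. When peaks under 5-fold were left out the difference was -0.09 ± 0.11 for THEMIS and -0.065 ± 0.11 for HHLA2, so that both calls ended, and for LMO3 it was -0.72 ± 0.16 (adjusted p 0.00365 by limma), a call. Without Raf-active normoxia replicate 3 the P2RY12 difference passed (0.22).

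The THEMIS flanks differed by side. On the upstream side, toward and into the phosphatase gene PTPRK, there were 8 to 10 peaks in Raf-inactive normoxia, 3 to 4 in Raf-active normoxia, 9 to 12 in Raf-inactive hypoxia and none in any Raf-active hypoxia library. On the other side there were 5 to 6, 4 to 5, 6 to 10 and 5 to 6. The PTPRK locus as a whole went from 51.5 to 26.1 scaled peaks with Raf in normoxia and from 55.5 to 15.6 in hypoxia, a difference between the Raf changes of -0.82 (adjusted p 0.000192 by limma). Hypoxia alone raised the THEMIS flanks by 0.42 ± 0.09 (adjusted p 0.00583 by limma, 8.78% of flanks called higher and 8.52% lower), a call that ended without peaks under 5-fold (0.10) and with flanks of 10 to 500 kb (0.07). The flanks of HHLA2 (-0.01 ± 0.07), P2RY12 (0.00 ± 0.06) and LMO3 (0.02 ± 0.09) did not pass that test.

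With Raf active, hypoxia lowered the THEMIS flanks by -0.54 ± 0.09 (adjusted p 0.000141 by limma, 19.9% of flanks called lower) and raised those of HHLA2 by 0.44 ± 0.07 (adjusted p 5.04e-05 by limma) and P2RY12 by 0.18 ± 0.06 (adjusted p 0.0154 by limma), where 28.6% of flanks were called higher. The LMO3 flanks changed by -0.17 ± 0.09, which did not pass. The THEMIS call ended at equal list length (-0.15), and at 5-fold enrichment the values were 0.01 for THEMIS and -0.04 for HHLA2. The P2RY12 call ended unscaled (0.12), with flanks of 10 to 500 kb (0.08) and without Raf-active normoxia replicate 2 (0.12). The LMO3 change passed without that replicate (-0.26), unscaled (-0.24) and at 5-fold enrichment (-0.50).

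**Figure D4:**
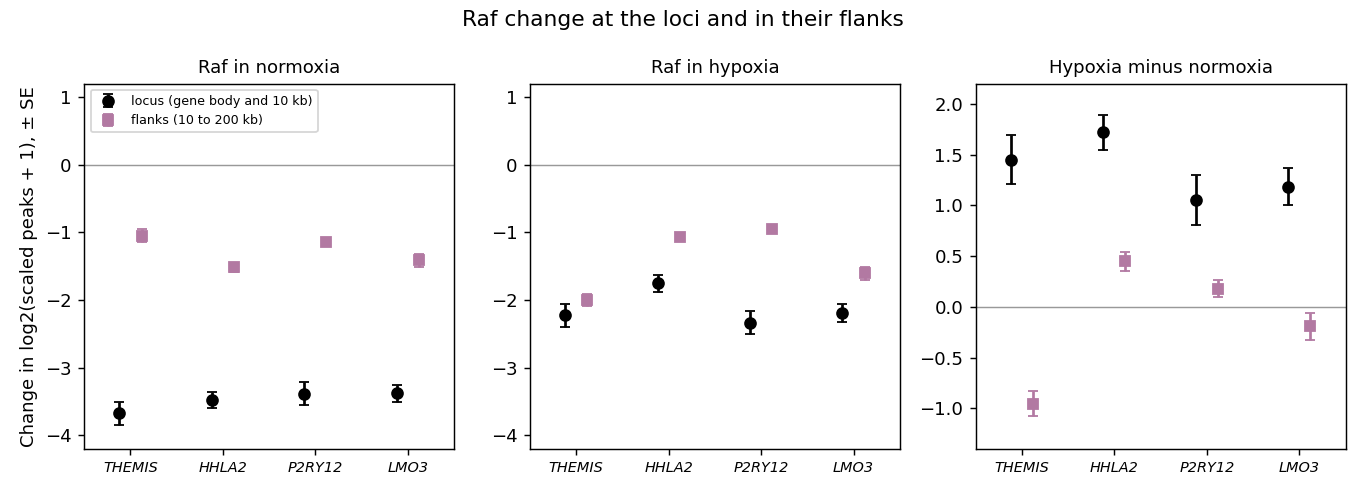
Change in log2(scaled peaks + 1) with Raf in normoxia, with Raf in hypoxia and the difference between both (vertical axes, ± SE), for the gene loci (circles) and their flanks of 10 to 200 kb (squares). In the right panel the 4 gene loci, which were chosen by these contrasts, lie between 1.05 and 1.72. The flanks, which were not, spread from -0.95 at THEMIS to 0.45 at HHLA2.

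The neighbouring genes did not all move like the flanks they lie in. MYH15, next to HHLA2, went from 24.6 to 6.76 scaled peaks with Raf in normoxia and from 22.7 to 10.7 in hypoxia, and the difference between its Raf changes was 0.71 (adjusted p 0.00152 by limma). IFT57, a gene of ciliary transport on the other side of HHLA2, fell by 1.18 and fell by 1.15 on the log2 scale. MED12L fell by 1.07 and fell by 0.94, and MGST1 fell by 1.41 and fell by 1.63. The Raf changes of IFT57, MED12L and MGST1 did not pass the test of a difference between oxygen states (0.03, 0.13 and -0.22). P2RY14, a nucleotide receptor gene beside P2RY12, fell from 12.7 to 6.54 scaled peaks in normoxia and from 10.4 to 8.17 in hypoxia, with a difference of 0.54 (adjusted p 0.00513 by limma). MTCL3, on the downstream side of THEMIS, went from 7.29 to 5.17 scaled peaks in normoxia and from 8.70 to 7.69 in hypoxia, with a difference of 0.26 that did not pass, where that of the THEMIS flanks was -0.95. With Raf active, hypoxia raised MTCL3 by 0.49 (adjusted p 0.00352 by limma). These loci share peaks with the flanks and with each other, so they are not independent.

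The relatives of the 4 genes were counted in 4 lists, beside the shares of all loci called: with Raf in normoxia 37.4% rose and 25.6% fell, with Raf in hypoxia 33.8% and 26.4%. Of 16 tested genes of T-cell receptor signalling besides THEMIS, 9 rose and 2 fell with Raf in normoxia, against 6 and 2 in hypoxia. Their median log2 change was 0.26 in normoxia and 0.21 in hypoxia, against 0.10 and 0.06 over all loci. PLCG1, the phospholipase acted on by the receptor's kinases, rose by 0.54 in normoxia (adjusted p 0.000129 by limma), and GRB2, an adaptor that binds THEMIS protein, by 0.44. GRB2 was the 1 gene of the list whose Raf changes differed, by -0.51 (adjusted p 0.00949 by limma). Of 9 tested B7 family genes besides HHLA2, 4 rose and 3 fell in normoxia, against 3 and 2 in hypoxia. CD274, which encodes PD-L1, changed by -0.08 in normoxia but fell by 0.78 in hypoxia (difference -0.69, adjusted p 0.0116 by limma). NCR3LG1, a ligand of natural killer cells, fell by 0.34 in normoxia and was at 0.02 in hypoxia (difference 0.36, adjusted p 0.0400 by limma).

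Of 6 tested P2Y and related receptors besides P2RY12, 1 rose and 4 fell in normoxia, where 37.4% of all loci rose and 25.6% fell, against 2 and 4 in hypoxia, where 33.8% rose and 26.4% fell. Their median change was -0.57 and -0.34, against 0.10 and 0.06 over all loci, and some, such as P2RY14, lie in the flanks of P2RY12. P2RY11, on another chromosome, fell by 0.62 and fell by 0.35. Of 15 tested LIM-only genes and partners besides LMO3, 4 rose and 4 fell in normoxia, against 3 and 3 in hypoxia, with medians of 0.05 and 0.08. Their share that fell in normoxia was near the 25.6% of all loci. LMO4, a relative of LMO3, changed by 0.17 in normoxia but fell by 0.65 in hypoxia (difference -0.82, adjusted p 0.0203 by limma). LDB2, which bridges LIM proteins, fell by 0.61 in normoxia and changed by -0.12 in hypoxia (difference 0.50, adjusted p 0.00647 by limma). Hypoxia alone called no T-cell or B7 gene, 1 P2Y gene, P2RY14, lower at -0.26 and 1 LIM partner, TAL1, higher at 0.80, where 6.02% of loci were called higher and 6.81% lower. With Raf active, where 13% of loci were called higher and 14.1% lower with hypoxia, the counts were 1 higher and 3 lower of the T-cell genes, 0 and 2 of the B7 genes, 1 and 0 of the P2Y genes and 3 and 3 of the LIM genes.

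The loci whose values over the 16 libraries lay closest to each of the 4 were largely the others of the 4. The measure was the root-mean-square difference in log2 scaled peaks, among tested loci at least 1 Mb away. P2RY12 and LMO3 were each other's nearest (0.255), as were THEMIS and HHLA2 (0.403). Outside the 4, the nearest to THEMIS was SNAP91, a gene of synaptic vesicle recycling (0.504), with 12.7 ± 1.08, 1.12 ± 0.43, 13.7 ± 0.73 and 2.10 ± 0.89 scaled peaks (SD, n = 4) in Raf-inactive and Raf-active normoxia and Raf-inactive and Raf-active hypoxia. AGMO, an enzyme gene of ether lipid breakdown, had 7.28 ± 2.03, 0, 8.97 ± 1.27 and 0.705 ± 0.470, at 0.446 from P2RY12 and 0.421 from LMO3. REDIC1 had 7.02 ± 0.67, 0, 6.45 ± 1.06 and 0.933 ± 0.016, at 0.478 and 0.413. Since the 4 were chosen for the same pattern, their likeness is a consequence of the choice.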

How the data were processed

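ATAC-seq was done on 16 IMR90 libraries in 4 groups of 4. The tools MACS2, Bowtie2, cutadapt, FastQC, Picard, SAMtools, bedtools and deepTools and the build hg38 are named, with no roles, per the submitters' processing notes; versions and settings are not given in the sources used here. The authors deposited 1 peak list per library. Its columns, by their order, are a score, deposited as a multiple of the -log10 q, a fold enrichment (ratio) at the summit computed by the authors, and the authors' -log10 p and -log10 q.

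Repeated intervals in a list were taken as 1 peak, with the summit of smallest p, on chromosomes 1 to 22 and X. No 2 lists were identical. Genes and promoters were RefSeq GRCh38.p14, and coordinates count from 1. Counts of peaks per locus were scaled so that libraries had equal totals, and log2(scaled peaks + 1) was fitted in limma 3.58.1 (R 4.3.3) with 4 group means over 16 libraries, keeping loci that averaged 3 or more peaks, at an adjusted p under 0.05. The fit was tested on simulated data. Flanks of 10 to 200 kb were fitted likewise. Named genes were the 4 loci, the next 2 by fall, the 3 nearest in pattern to each, the neighbours, and up to 4 per gene list by size of the oxygen difference in the Raf change. The values of 1 gene that this rule names are not reported here. The loci and lists were chosen with earlier results of these data known. Alternatives changed the scaling, filters, thresholds, list length, windows, pseudocount, measure, fit and replicates.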

Additional observations from a re-analysis of the deposited data

Results flagged for a closer look

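In 6 of the 32 groups of 4 values examined, 1 library stood far from the other 3. Chance gives about 1 in 20 groups for continuous values, but not for small counts with ties, so no excess is read from this. Groups with every library at 0 could not be flagged. At THEMIS these were Raf-active normoxia replicate 4 (0.885 scaled peaks, the others at 0) and Raf-active hypoxia replicate 3 (2.73). At HHLA2 they were Raf-inactive hypoxia replicate 2 (10.1, below the others) and Raf-active hypoxia replicate 3 (3.64). At P2RY12 they were Raf-inactive normoxia replicate 2 (8.72, below the others) and Raf-active hypoxia replicate 1 (2.80). In each of these groups the other 3 libraries had the same number of peaks before scaling, and the library that stood apart differed by 1 to 3 peaks.

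In the flanks the Raf change differed between hypoxia and normoxia by -0.95 on the log2 scale at THEMIS and by 0.45 at HHLA2, both past the limma test of the difference.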

How the results depend on the processing

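Leaving out 1 library at a time kept all 4 loci lower with Raf in both oxygen states, and all 4 flanks called lower. The loci were chosen by these counts, so their left-out values describe them and are no test. The difference between oxygen states ranged from 1.35 to 1.68 for THEMIS, 1.62 to 1.85 for HHLA2, 0.81 to 1.14 for P2RY12 and 1.09 to 1.29 for LMO3. With the locus widened to 50 kb, THEMIS turned to -0.34 for hypoxia with Raf active and to -0.40 for the difference. With that window the difference was 0.21 for P2RY12, 1.16 for HHLA2 and 1.11 for LMO3. The cause was not tested here or below. With flanks of 10 to 500 kb or peaks of at least 5-fold enrichment, hypoxia with Raf inactive was called at the flanks of 0 genes in place of 1, and at 5-fold enrichment the difference was called at 1 in place of 2. Flank values that turned sign were, for hypoxia with Raf inactive, HHLA2 at 5-fold enrichment (0.0201), P2RY12 unscaled (-0.0623) and in base pairs (-0.0154), and LMO3 unscaled (-0.0425); for hypoxia with Raf active, THEMIS (0.0122) and HHLA2 (-0.0449) at 5-fold enrichment and LMO3 with flanks of 10 to 100 kb (0.24) and to 500 kb (0.0584); and for the difference HHLA2 at 5-fold enrichment (-0.065). Without single libraries the uncalled flank changes of hypoxia with Raf inactive ranged from -0.0582 to 0.0225 at HHLA2, -0.0234 to 0.0416 at P2RY12 and -0.0321 to 0.0578 at LMO3. The regions lost in normoxia numbered 16 at 5-fold enrichment in place of 27, and the Raf-active hypoxia peaks at a Raf-inactive normoxia peak 2 of 17 in place of 18 of 34.

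Over all loci, calls with the gene body alone, where 8069 loci were tested, were 5531 for Raf in normoxia in place of 9568, 5198 for Raf in hypoxia in place of 9127, 1056 for hypoxia with Raf inactive in place of 1947, 2651 with Raf active in place of 4112, and 1799 for the difference in place of 2776. In base pairs covered the last 3 were 3522, 6322 and 4799. Hypoxia with Raf inactive called 1101 in a fit to the compared groups alone, and hypoxia with Raf active 6238 in loci widened to 50 kb. Unscaled, 77.6% and 78.4% of calls were higher with Raf in normoxia and hypoxia in place of 59.3% and 56.2%, and with hypoxia 29.3% and 37.7% with Raf inactive and active in place of 46.9% and 47.9%. The unscaled median over loci was 0.33 and 0.29 with Raf, against 0.10 and 0.06 scaled. Same-numbered replicates did not deviate together (24 correlations from -0.037 to 0.019), and with the replicate number as a block the counts were 9477, 9026, 1797, 3924 and 2630. Read depth was not stated in the lists, so a site below the calling threshold cannot be told from a closed one.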
